A study of Sus scrofa with 9 samples.

Results

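The activin subunit gene INHBA, the follistatin gene FST and the anti-Müllerian hormone receptor gene AMHR2 were followed by RNA sequencing in primary granulosa cells of the pig ovary. They were selected by gene symbol and took up 3 of the 1081 rows of the deposited table, and all 3 passed the filter on low values that 919 rows passed. The 9 libraries fell into 3 groups of 3. All came from wild-type primary cells, labelled as granulosa cells of the ovary, which were given sulforaphane (a plant isothiocyanate that activates the transcription factor NRF2), given FSH (follicle-stimulating hormone), or kept as controls. The labels state neither dose, duration, vehicle nor animal age, and do not tell if the 3 libraries within a group derive from different cultures or pigs. The p-values therefore measure the spread between these libraries, which may be technical.

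Granulosa cells make members of the TGF-beta family and respond to them. The INHBA product pairs with itself to form activin A, or with the inhibin alpha subunit to form inhibin A, and activin and inhibin act in opposite directions on FSH release from the pituitary. Follistatin, the FST product, binds activin outside the cell and keeps it from its receptors. AMHR2 is the type II receptor that binds anti-Müllerian hormone, a granulosa cell hormone known to restrain follicle recruitment and the response to FSH, and it signals through the SMAD proteins that also serve BMPs.

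Levels are given as FPKM, which divides fragments by transcript length and library depth, so that genes of different length can be compared. The recovered depth of the libraries lay between 16.6 and 22.3 in units of 1e6 fragments, of which the table held 6.72% to 8.38%. NQO1, an NRF2 target, was at 84.7 to 126 FPKM in the sulforaphane libraries, 12.4 to 14.6 with FSH and 3.21 to 4.07 in controls. It was thus also higher with FSH than in controls. CYP11A1, which FSH induces in granulosa cells, was at 527 to 607 FPKM in the FSH libraries and at 74.0 to 163 FPKM elsewhere. Genes with small differences from control were missing from the table, so nearly every tested gene was called against control: 99.6% with sulforaphane and 97.9% with FSH (edgeR quasi-likelihood test, Benjamini-Hochberg adjusted p under 0.05). In the direct comparison of sulforaphane with FSH, 55.7% were called. That a gene differed from control is thus common to the rows, and the sizes, directions and order of the levels carry the description below.

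INHBA was highest with FSH and lowest with sulforaphane. Its level was 42.9, 40.0 and 46.3 FPKM in control replicates 1 to 3. With sulforaphane it was 28.7, 25.2 and 28.3 FPKM. With FSH it was 121, 134 and 115 FPKM. No library of any group overlapped with those of another, and the FSH libraries lay far above the rest. Such separation held for 96% of all tested genes in sulforaphane against control, 98.7% in FSH against control and 59.4% in sulforaphane against FSH. The rise with FSH was 2.88-fold (log2 fold change 1.53, 95% confidence interval 1.32 to 1.73; adjusted p = 3.56e-08, edgeR), in a comparison where 55.3% of tested genes were called higher. INHBA stood at percentile 93.1 of the log2 fold changes of all tested genes there. Sulforaphane gave a 1.58-fold lower level (log2 fold change -0.66, interval -0.87 to -0.46; adjusted p = 3.56e-05), where 65.3% were called lower. This difference lay close to the median of the tested genes, which was -0.56. With TMM scaling it was -0.19 and missed the threshold (adjusted p = 0.0881, edgeR). Over the alternatives other than left-out libraries, adjusted p ranged from 2.24e-10 to 0.0881. Both the median and the TMM factors come from rows of which 99.6% were called in this comparison with library depth as the scale. That share depends on the scaling, since 613 of the 919 rows were called with TMM. It therefore does not decide between the scalings. Against FSH, the level with sulforaphane was 4.56-fold lower (log2 fold change -2.19, interval -2.40 to -1.98; adjusted p = 1.46e-09), where 42.8% were called lower.

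The INHBA row is an assembled locus named inhibin beta A chain by the file, not a gene with an NCBI identifier. Its counts were not whole in any of the 9 libraries, as when reads are shared out between loci, and its level is uncertain for that reason. Whether reads were shared out cannot be told from the table. A search found 0 other rows that held the complementary fractions in every library, within 0.011 of a whole sum. It sought single partner rows in a table holding 6.72% to 8.38% of each library, so a partner elsewhere would be missed. The file gives no coordinates for the locus. The reference gene table of the build Sscrofa11.1 lists an INHBA entry on chromosome 12 from 53115379 to 53117128, a span of 1750 bases. The ratio of count to FPKM implied a transcript length of 1644 bases for the assembled locus. No source used here states if both are the same locus.

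**Figure D1:**
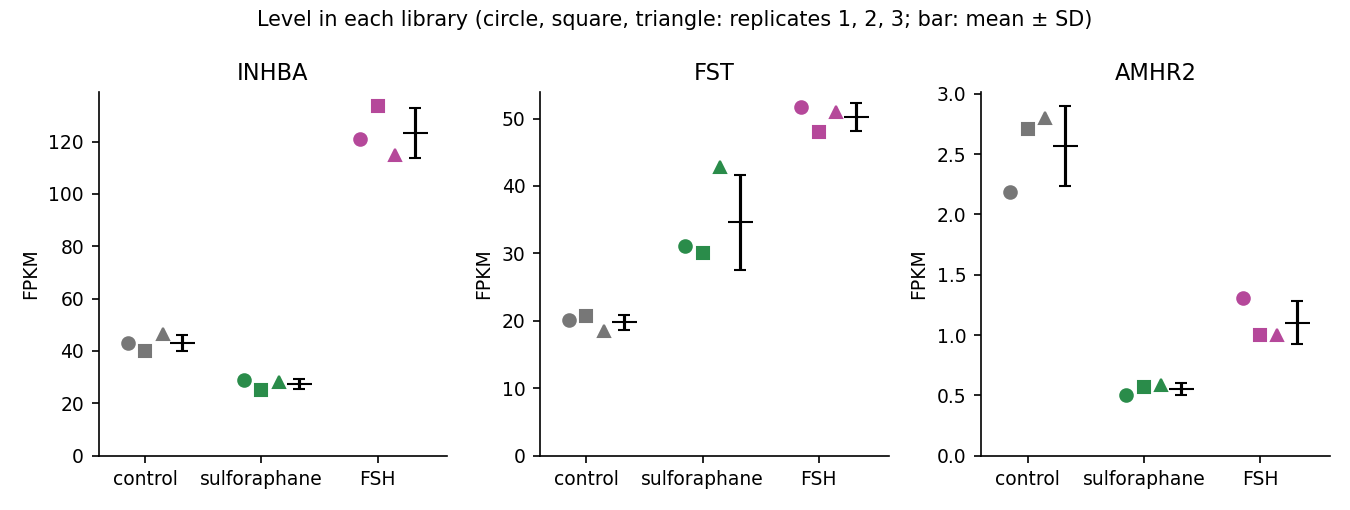
FPKM of INHBA, FST and AMHR2 (vertical axes, linear from 0) in each of the 9 libraries, by group. Points are single libraries and black bars the mean ± SD of 3. The order of the groups differs between the genes: INHBA is lowest with sulforaphane (25.2 to 28.7), FST is lowest in controls (18.6 to 20.8) and AMHR2 is highest in controls (2.19 to 2.80).

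FST was higher with both treatments than in controls, and highest with FSH. The control libraries measured 20.1, 20.8 and 18.6 FPKM. The sulforaphane libraries measured 31.0, 30.1 and 42.7 FPKM, and the FSH libraries 51.7, 47.9 and 51.0 FPKM. The 3 groups did not overlap, although sulforaphane replicate 3 stood apart from its group and nearer to the FSH libraries. Lack of overlap held for 96% of all tested genes in sulforaphane against control, 98.7% in FSH against control and 59.4% between the treatments. With sulforaphane FST rose 1.75-fold (log2 fold change 0.81, interval 0.53 to 1.08; adjusted p = 9.11e-05, edgeR), where 34.3% of tested genes were called higher. With FSH it rose 2.54-fold (log2 fold change 1.34, interval 1.06 to 1.62; adjusted p = 1.93e-06). The level with sulforaphane was 1.45-fold lower than with FSH (log2 fold change -0.54, interval -0.81 to -0.27; adjusted p = 0.00214). That last call was lost under median-ratio scaling (-0.17, adjusted p = 0.128), whereas the rise against control grew to 1.27 on the log2 scale with TMM scaling.

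The spread of FST within the sulforaphane group was 20.3% of its mean, where counting alone gives 3.91%. In controls it was 5.71% and with FSH 4.01%. The median spread of all tested genes was also widest with sulforaphane, at 15.0%, against 7.45% in controls and 5.89% with FSH, and FST lay at percentile 66.6 of the spreads in the sulforaphane group. The fit shares 1 estimate of the spread over the 3 groups, so its intervals and p-values do not take these unequal spreads into account. Without sulforaphane replicate 3, the log2 fold change was 0.63 against control and -0.72 against FSH, and both calls held. The standard error of FST in FSH against control was 0.0755 without that library and 0.128 with it. The same library had the highest NQO1 of its group (126 FPKM, and 87.8 and 84.7 in the others) and the highest CYP11A1 (136 FPKM). The part of that library's other differences in the FST value was not tested. All FST counts were whole. In the reference annotation of Sscrofa11.1 the gene lies on chromosome 16 from 32806341 to 32811382.

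Because both transcripts were read in the same library, their ratio does not depend on how libraries were scaled. FST FPKM divided by INHBA FPKM was 0.468, 0.519 and 0.400 in control replicates 1 to 3, and 0.427, 0.359 and 0.444 with FSH. With sulforaphane it was 1.08, 1.20 and 1.51. Per length, FST was thus below INHBA in all 6 control and FSH libraries and above it in all 3 sulforaphane libraries. Which of the pair is higher with sulforaphane rests on the division by length: from counts, the mean ratio was 0.805 with sulforaphane, 0.292 in controls and 0.257 with FSH. The mean ratio was 0.462 ± 0.0596 in controls, 0.410 ± 0.0450 with FSH and 1.26 ± 0.223 with sulforaphane (SD, n = 3 each). Control and FSH libraries overlapped, so the ratio stayed within their spread although both transcripts rose with FSH. Sulforaphane gave a mean ratio 2.73 times that of controls. No test was run on the ratio, which was formed from genes chosen with their values known. It compares transcripts and not proteins, and the uncertain level of the INHBA locus enters it.

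**Figure D2:**
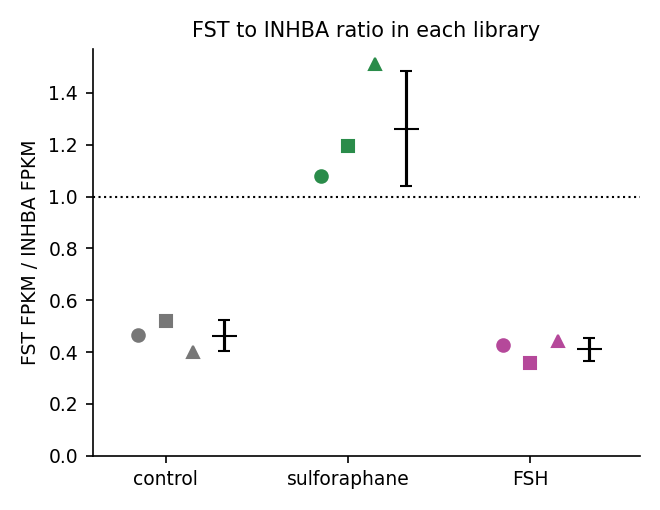
FST FPKM divided by INHBA FPKM in each of the 9 libraries (vertical axis, linear from 0), by group. Points are libraries, black bars the mean ± SD of 3, and the dotted line marks equal levels. The 3 sulforaphane libraries lie between 1.08 and 1.51, above the line, and the 6 others between 0.359 and 0.519.

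AMHR2 was lower with both treatments, and lowest with sulforaphane. It measured 2.19, 2.71 and 2.80 FPKM in controls. With sulforaphane it measured 0.50, 0.57 and 0.59 FPKM, and with FSH 1.31, 1.0 and 1.0 FPKM. The groups were separate, and the highest treated library still lay well below the lowest control. Of all tested genes, 96% were separate in sulforaphane against control, 98.7% in FSH against control and 59.4% between the treatments. The level with sulforaphane was 4.73-fold lower than in controls (log2 fold change -2.24, interval -2.67 to -1.81; adjusted p = 7.78e-07, edgeR), at percentile 2.29 of all tested genes. With FSH it was 2.36-fold lower (log2 fold change -1.24, interval -1.62 to -0.85; adjusted p = 5.32e-05), in a comparison where 42.7% of genes were called lower. The difference between the treatments was 2.01-fold, lower with sulforaphane (log2 fold change -1.0, interval -1.48 to -0.53; adjusted p = 0.00138).

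AMHR2 was the rarest of the 3 transcripts. In controls it stood at percentile 29.3 of the tested genes by FPKM, while INHBA stood at 87.3 and FST at 78.0. Its counts were 82, 117 and 112 in controls, 44, 36 and 49 with FSH, and 18, 23.0 and 21 with sulforaphane. Counting alone gives an error of 22.0% per sulforaphane library, more than the 8.54% spread observed there. The count of sulforaphane replicate 2 was not whole. In Sscrofa11.1 the gene is annotated on chromosome 5 from 18642212 to 18648859.

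In RNA from a whole culture, fewer cells of a type and less RNA per cell cannot be told apart. Genes listed as markers of cell types differed between the same libraries. So did nearly all tested genes, with 99.6% called with sulforaphane and 97.9% with FSH against control. Markers with small differences from control would not appear among the rows, so a difference in those present cannot tell about cell makeup. The 5 smooth muscle markers analysed (of 7 listed) summed to 7283 to 7581 FPKM in controls, 3058 to 3122 with FSH and 2314 to 2529 with sulforaphane. That sum is nearly all ACTA2, and its members did not share an order: ACTA2, DES and LMOD1 had the order of AMHR2. CNN1 had means of 97.3 FPKM in controls, 149 with FSH and 43.5 with sulforaphane, and MYH11 of 22.5, 3.82 and 4.30 FPKM. The 3 keratins of 6 surface epithelium markers summed to 154 to 157, 89.4 to 95.3 and 39.4 to 46.5 FPKM in controls, FSH and sulforaphane. The 3 of 8 stromal fibroblast markers summed to 85.4 to 91.6, 56.9 to 60.6 and 44.3 to 52.0 FPKM in that order of groups, a sum led by COL1A1, while PDGFRB had means of 9.47, 6.55 and 13.1 FPKM. The theca list (2 of 8 analysed, LHCGR and CYP11A1) summed to 139 to 166 FPKM in controls, 530 to 611 with FSH and 74.9 to 137 with sulforaphane. That sum is nearly all CYP11A1, which granulosa cells also express, so it does not mark theca cells here. LHCGR, also made by granulosa cells, had means of 2.04, 3.59 and 0.987 FPKM. The luteal list, which adds PTGFR (3 of 6), had sums of 159 to 188, 564 to 655 and 84.7 to 155 FPKM. Of 11 granulosa markers besides the 3 genes described, HSD17B1 was analysed, at 2.74 to 3.13 FPKM in controls, 4.88 to 6.0 with FSH and 0.930 to 2.18 with sulforaphane. The endothelial marker KDR (1 of 6) was at 0.080 to 0.10, 0.250 to 0.360 and 0.870 to 1.67 FPKM in controls, FSH and sulforaphane. No analysed marker was at 0 throughout a group, and 0 markers of leukocytes, oocytes and erythroid cells were analysed. The part of cell makeup in the levels of INHBA, FST and AMHR2 was not tested.

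Set side by side, the 3 genes had different orders of groups. INHBA ran from sulforaphane through control to FSH, FST from control through sulforaphane to FSH, and AMHR2 from sulforaphane through FSH to control. Adjusted p was at most 0.00214 for 3 genes in 3 comparisons (edgeR), and the exceptions under other scalings are those named above. Calls against control do not set these genes apart, since 99.6% of tested genes were called with sulforaphane and 97.9% with FSH. Between the treatments 55.7% were called. Both comparisons against control use the same 3 control libraries. Relative to the median of the tested genes, FST was higher by 1.37 with sulforaphane and by 0.94 with FSH on the log2 scale. On that relative scale INHBA was at -0.10 and 1.12, and AMHR2 at -1.68 and -1.64. The medians differed (-0.56 with sulforaphane, 0.41 with FSH). They came from rows of which nearly all were called with depth scaling, and 613 (sulforaphane) and 865 (FSH) of 919 with TMM scaling. The level of unchanged genes is thus not known, and this scale does not rank the treatments. In the direct comparison of sulforaphane with FSH, the log2 fold change was -0.54 for FST and -1.0 for AMHR2.

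**Figure D3:**
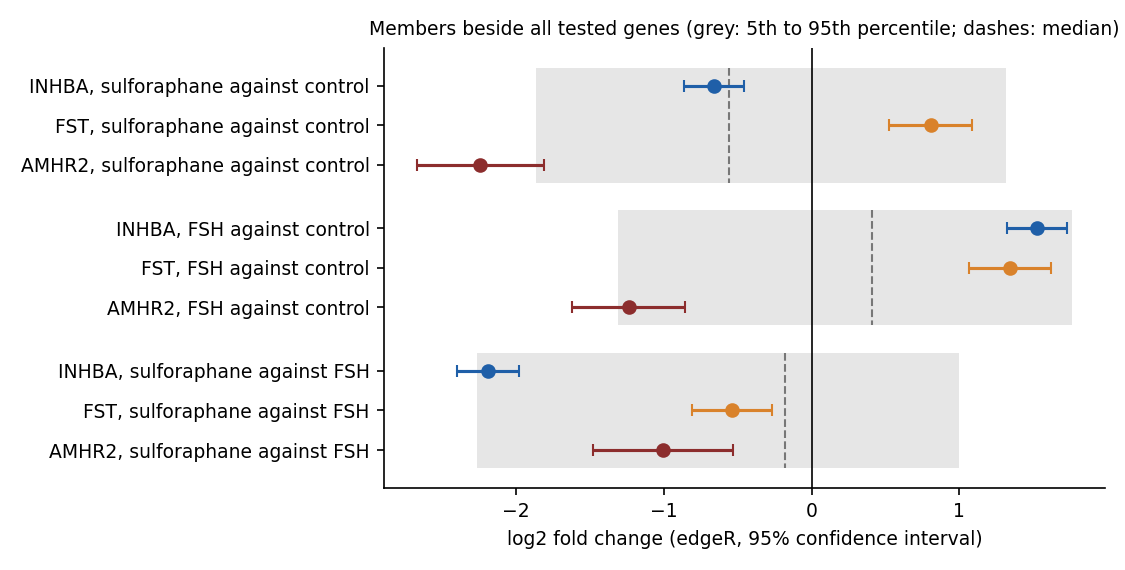
Log2 fold changes of the 3 genes (points, with 95% confidence intervals from edgeR) in the 3 comparisons. Grey bands span the 5th to 95th percentile of all 919 tested genes and dashes mark their median. INHBA with sulforaphane lies near the median of its comparison (-0.66 beside -0.56), while AMHR2 with sulforaphane (-2.24) lies below the band.

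**Figure D4:**
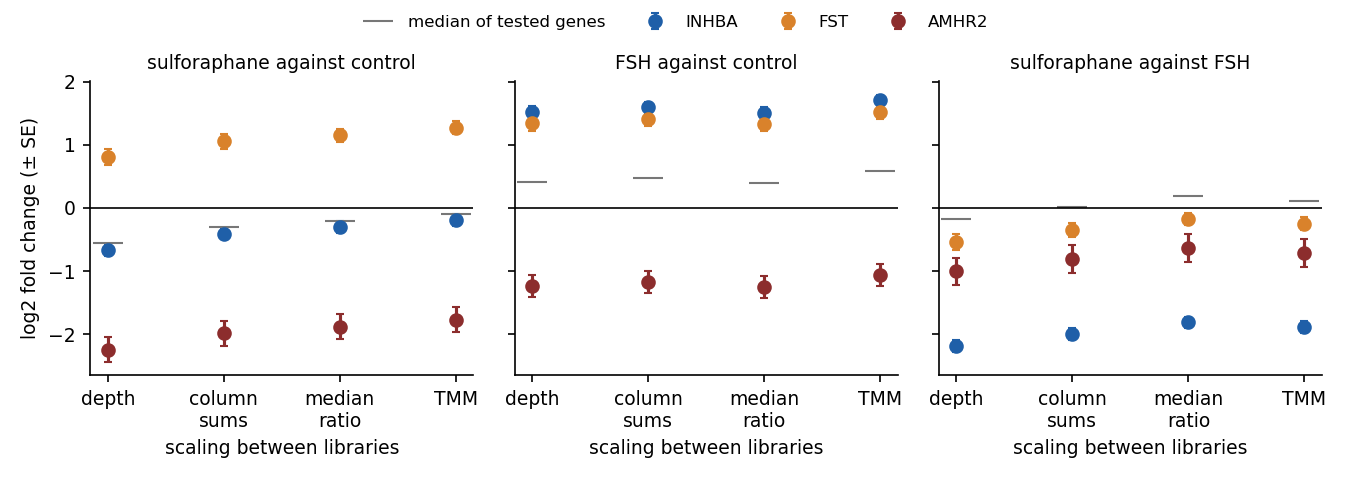
Log2 fold changes (± SE, edgeR) of the 3 genes under 4 scalings between libraries, with the median of the tested genes as a grey bar. Within a comparison a scaling moves all genes together. INHBA with sulforaphane moves from -0.66 with library depth to -0.19 with TMM factors, together with the median (-0.56 to -0.09).

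Of 35 listed genes of the activin, inhibin and AMH pathway, 7 were in the table and tested. Besides the 3 genes above these were the SMAD proteins SMAD5, SMAD6 and SMAD9 and the membrane protein PMEPA1. With sulforaphane 3 of the 7 were called higher and 4 lower, beside 34.3% and 65.3% of all tested genes, with a median log2 fold change of -0.47 beside -0.56. With TMM scaling 4 of the 7 were called, and 613 of the 919 tested genes. With FSH 4 were higher and 3 lower, beside 55.3% and 42.7% of all tested genes, with a median of 0.37 beside 0.41. Between sulforaphane and FSH, 1 was higher, 4 were lower and 2 were not called, against 12.9% and 42.8% of all tested genes, with a median of -0.54 beside -0.18. Such counts are near what the table as a whole gives. Levels of INHA, INHBB, AMH, FSTL3, SMAD2, SMAD3 and of the activin receptors are not analysed here.

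PMEPA1, which TGF-beta signals induce and which limits SMAD activation, had the order of groups seen for INHBA. It was at 37.7, 36.6 and 38.0 FPKM in controls, 28.2, 28.5 and 20.1 with sulforaphane and 59.3, 61.9 and 57.5 with FSH. The groups did not overlap, as in 96% and 98.7% of all tested genes against control (sulforaphane, FSH) and 59.4% between the treatments. It rose 1.58-fold with FSH (adjusted p = 0.000305, edgeR). Its log2 fold change with sulforaphane was -0.54 (adjusted p = 0.000985, edgeR). That call was lost in edgeR with TMM (-0.05, adjusted p = 0.761), median-ratio (-0.17, adjusted p = 0.29) and column-sum scaling (-0.28, adjusted p = 0.0611). It was also lost in DESeq2 with its own factors (-0.17, adjusted p = 0.301). In the direct comparison PMEPA1 was 2.31-fold lower with sulforaphane than with FSH (adjusted p = 1.83e-06, edgeR).

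SMAD9 and SMAD5 carry signals of BMP and anti-Müllerian hormone receptors, and SMAD6 inhibits them. SMAD9 was at 24.1, 16.5 and 23.9 FPKM in controls, 39.9, 40.3 and 51.6 with sulforaphane and 15.5, 17.3 and 16.6 with FSH. It rose 2.05-fold with sulforaphane (adjusted p = 3.85e-05), the reverse of the AMHR2 direction. The lower level with FSH overlapped with control replicate 2, and its log2 fold change of -0.38 (adjusted p = 0.0276) was lost without control replicate 1 (-0.29), control replicate 3 (-0.30), FSH replicate 1 (-0.34) or FSH replicate 3 (-0.39), and with TMM scaling (-0.21). SMAD5 rose 1.41-fold with sulforaphane and 1.29-fold with FSH, from 3.65 ± 0.391 FPKM in controls. SMAD6 was at 26.4 ± 0.739 FPKM in controls, 19.1 ± 2.36 with sulforaphane and 17.1 ± 0.680 with FSH (SD, n = 3). Its fall with FSH was 1.54-fold, and its difference with sulforaphane vanished with TMM scaling (0.0029 in place of -0.47 on the log2 scale). The call of SMAD6 with sulforaphane was also lost with median-ratio factors (-0.11, adjusted p = 0.195, edgeR) and in DESeq2 with its own factors (-0.11, adjusted p = 0.172).

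Of 42 listed genes of the wider TGF-beta family, 6 were in the table. With sulforaphane 5 were called lower and TGFB2 higher, where 65.3% of all tested genes were called lower, with a median log2 fold change of -1.25 beside -0.56. With FSH 5 were called lower and TGFB2 higher, where 42.7% of all were called lower, with a median of -0.89 beside 0.41. GDF6, a BMP family ligand, was at 11.14 ± 1.31 FPKM in controls, 2.28 ± 0.414 with FSH and 1.12 ± 0.205 with sulforaphane, the order seen for AMHR2. BMP4, a ligand made by theca cells in rodents, fell from 28.0 ± 1.80 FPKM to 13.7 ± 2.61 with sulforaphane and 15.3 ± 0.724 with FSH. BMPER, an extracellular BMP regulator, fell from 10.5 ± 1.53 FPKM to 3.77 ± 0.714 and 5.57 ± 0.650, and LTBP2, a matrix protein of the latent TGF-beta binding protein family, from 19.7 ± 1.92 FPKM to 7.32 ± 2.12 and 5.82 ± 0.149 (counts of both not whole in the file). TGFB3 was at 10.3 ± 0.592, 5.07 ± 0.575 and 6.45 ± 0.174 FPKM in controls, sulforaphane and FSH. TGFB2 was near the filter, at 0.993 ± 0.127 FPKM in controls, 1.55 ± 0.446 with sulforaphane and 1.35 ± 0.121 with FSH. Its call with FSH (log2 fold change 0.56, adjusted p = 0.0323) was lost without any of the 3 control libraries (0.54 to 0.57), without FSH replicate 1 (0.44) or without FSH replicate 3 (0.59). The call was also lost in limma with pseudocounts of 0.1, 1 and 5 (adjusted p = 0.0541, 0.0614 and 0.079).

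**Figure D5:**
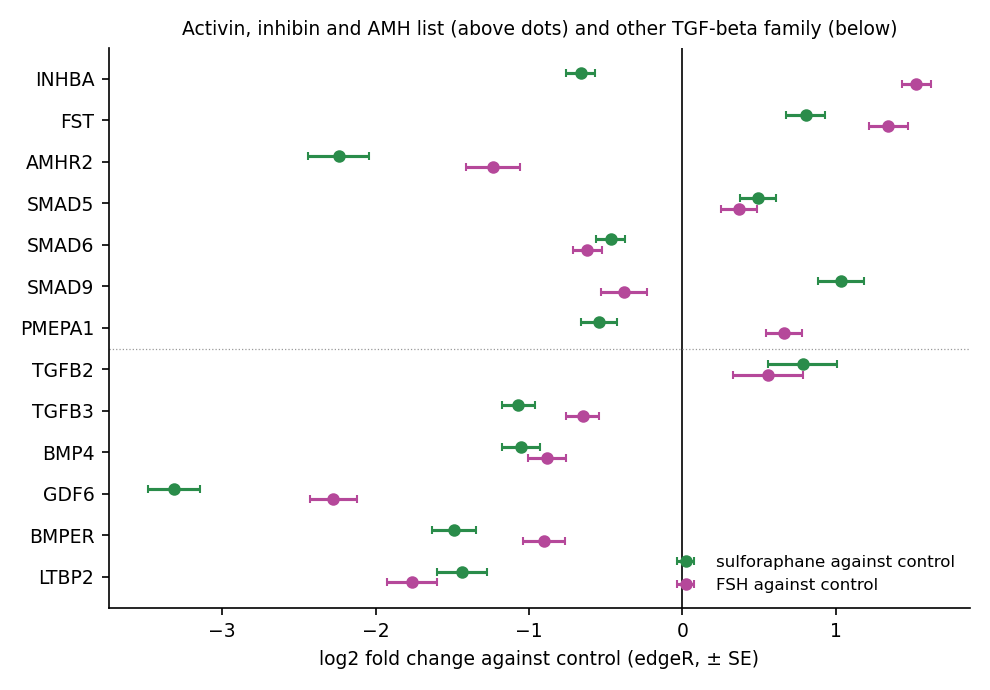
Log2 fold changes against control (horizontal axis, ± SE, edgeR) of the 7 activin, inhibin and AMH pathway genes, above the dotted line, and the 6 other TGF-beta family genes, below it. INHBA and PMEPA1 lie on the left with sulforaphane and on the right with FSH, SMAD9 the other way, and the remaining 10 genes on 1 side with both; SMAD6 with sulforaphane changes sign with TMM scaling.

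The genes most like each of the 3 were sought among 906 other tested genes with a symbol, by the root mean square difference over 9 libraries of log2(FPKM + 1) centred on the control mean. Nearest to INHBA was SCARA5, a ferritin receptor, at a difference of 0.0846 (Pearson r 0.998 over the same libraries), with means of 20.6 FPKM in controls, 13.6 with sulforaphane and 64.7 with FSH. VAT1L, SDC1 (the heparan sulfate proteoglycan syndecan-1), SLC6A4 (the serotonin transporter) and NOV followed at 0.167 to 0.186. VAT1L, SLC6A4 and NOV are rare (control means of 0.79, 1.18 and 1.56 FPKM), and the added 1 FPKM compresses their differences. Their fitted log2 fold changes with sulforaphane were -1.42, -1.34 and -1.79, beside -0.66 for INHBA. SCARA5 was also first by Pearson r, followed by PHKA2, CLSTN3, VASH2 and SEMA6A.

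Nearest to FST was PRDX6, an antioxidant enzyme whose counts were not whole, at 0.133 (r 0.978). Its means were 161 FPKM in controls, 262 with sulforaphane and 374 with FSH. COBLL1, LOC102160003, C15H2orf72 and RASD1 followed at 0.163 to 0.226. C15H2orf72 is rare (control mean 0.403 FPKM), with a fitted log2 fold change of 1.93 with sulforaphane, beside 0.81 for FST. By Pearson r the first were AKR1CL1, PRDX6, TOR1AIP2 and a pair of assembled loci that the file names pol and gag. Nearest to AMHR2 were INSIG1 and SQLE, of sterol regulation and synthesis, at 0.114 and 0.126, then PLA2G3, SMTN and GADD45B at 0.131, 0.135 and 0.1398. By Pearson r the first were TINAGL1, SPC24, SPARC, VCAM1 and LMOD1. The added 1 FPKM compresses a gene as rare as AMHR2, so INSIG1 is near it on this scale with a fitted log2 fold change of -1.30 with sulforaphane, beside -2.24 for AMHR2. With 3 groups, high correlations are common: 84 genes had r above 0.95 with INHBA, 22 with FST and 63 with AMHR2.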

How the data were processed

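Polyadenylated RNA of 9 libraries was sequenced on the Illumina platform; the labels' protocols mention no step that keeps strand. StringTie 1.3.1, HISAT2, Bowtie2 2.2.8 and fastp are named in the submitters' processing notes, as are edgeR, DESeq2 and the build Sscrofa11.1, without their roles. The authors deposited FPKM and an estimated count per gene and library, per the file headers; the counting tool and how the rows were chosen are not given in the sources used here. Counts were not whole in 143 of 1081 rows, by a tolerance of 1e-06, and were rounded. Of 1053 NCBI identifiers all matched the reference table, and 28 rows were assembled loci. The table holds part of each library, so depth was worked out from counts divided by FPKM, in 354 genes with at least 100 counts and 5 FPKM for relative depth and in 10 genes at a common maximum against the annotated span for absolute depth. Columns belonging to other series numbered 0.

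Genes reaching 1 FPKM in 3 or more libraries were tested with edgeR 4.0.16 (R 4.3.3), the quasi-likelihood test with 3 group means over 9 libraries, recovered depth as library size and Benjamini-Hochberg adjustment over 919 genes. The common dispersion was 0.0118 (biological coefficient of variation 10.9%). The code was tested on simulated counts. Standard errors are the log2 fold change over the square root of F. With 3 libraries against 3 no exact permutation test could go below p = 0.1. Alternatives were other scalings, filters and pseudocounts, limma 3.58.1, DESeq2 1.42.0, a replicate block, pairwise fits, rounding down and each library left out.

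The 3 genes, the gene lists and the settings were chosen with earlier results of these data known. Named genes are the 3 genes, every listed pathway gene in the table, and the 5 nearest patterns to each by either measure; NQO1 and CYP11A1 check the treatments.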

Additional observations from a re-analysis of the deposited data

How the results depend on the processing

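Of 198 recomputed log2 fold changes of INHBA, FST and AMHR2 (14 settings and 9 left-out libraries), 195 kept their direction and their side of the threshold, 0 changed sign and 3 lost the call. INHBA with sulforaphane was -0.19 with TMM factors, and FST in sulforaphane against FSH was -0.17 with median-ratio factors and -0.17 in DESeq2 with its own factors. These factors move the median of the tested genes as well, from -0.56 to -0.09 with TMM and to -0.20 with median-ratio factors in sulforaphane against control. They are computed from rows of which nearly all were called with depth scaling. With TMM 613 of the 919 rows were called there, and 686 with median-ratio factors. AMHR2 with sulforaphane was -0.45 in limma with a pseudocount of 5, which compresses rare genes by construction. With each library left out, the log2 fold change of INHBA with sulforaphane lay between -0.71 and -0.61, that of FST between 0.63 and 0.90 and that of AMHR2 between -2.36 and -2.15.

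Genes called lower with sulforaphane numbered 600 with depth, 296 with TMM, 369 with median-ratio factors and 363 in DESeq2 with its own factors. Genes called higher in sulforaphane against FSH numbered 119, and 320, 388 and 374 with those 3 settings, and 226 with column sums. Requiring a mean of at least 5 FPKM left fewer genes to call and removed AMHR2: 489 (178 higher, 311 lower) with sulforaphane, 485 (264, 221) with FSH and 292 (79, 213) between them. The activin, inhibin and AMH list had 4 genes called with sulforaphane under TMM, and 3 between the treatments when rows with counts that were not whole were left out. The FST to INHBA ratio from counts in place of FPKM, which ignores length, was 0.292 in controls, 0.805 with sulforaphane and 0.257 with FSH. Signs changed for SMAD6 with sulforaphane (0.0029 with TMM), for BMP4 in sulforaphane against FSH (0.12 with TMM, 0.20 with median-ratio factors, 0.017 with column sums, 0.20 in DESeq2 with its own factors) and for TGFB2 in that comparison (-0.0844 without sulforaphane replicate 3, up to 0.40 without replicate 1). Other causes were not tested.

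Whether replicate numbers pair the libraries cannot be told from 3 libraries a group. Of 9 same-numbered pairs, 2 had correlated deviations above 0.1 (range -0.18 to 0.21), and other pairs ranged from -0.15 to 0.16. Not every library correlated best with its own number. With the replicate number as a block, INHBA with sulforaphane was at -0.66 and no call of INHBA, FST or AMHR2 changed.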
